A study of Mus musculus with 12 samples.

Results

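The 10 genes described here belong to growth hormone signalling, its feedback and the IGF system in the liver. They were taken as the rows of the raw count table whose Ensembl identifiers belong to *Ghr*, *Stat5a*, *Stat5b*, *Socs2*, *Cish*, *Igf1*, *Igfals*, *Igfbp1*, *Igfbp2* and *Igfbp4*. Each symbol matched 1 identifier among the 54232 in the table, and all 10 passed the filter on low counts that left 17509 genes for testing. The data are RNA-seq counts from whole livers of male C57Bl/6J mice that were 10 weeks old, kept on chow and fasted for 4 h before sacrifice. WT is the name of the 6 control livers (*Marchf6* fl/fl, AlbuminCre-) and LKO that of the 6 hepatocyte knockouts (*Marchf6* fl/fl, AlbuminCre+), with 1 library per mouse. *Marchf6* encodes an E3 ubiquitin ligase of the endoplasmic reticulum membrane. Both genotypes therefore carried the floxed allele, and Cre was driven by the albumin promoter. The study describes the knockout as specific to hepatocytes, and counts from whole livers cannot show which other cells kept the gene. WT and LKO mice were littermates from crosses of the floxed line.

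Growth hormone from the pituitary binds its receptor GHR on hepatocytes, and the receptor-bound kinase JAK2 then phosphorylates STAT5B and STAT5A, which enter the nucleus and activate target genes. CISH and SOCS2 are induced quickly by STAT5 and act back on the receptor, whereas IGF1 and the acid-labile subunit encoded by *Igfals* are secreted and carry the growth signal in plasma. IGF-binding proteins hold IGF1 in the circulation and tissues; among them IGFBP1 is known for its suppression by insulin and its rise on fasting. In male mice growth hormone is released in pulses, and the liver genes that read these pulses are known for large differences between animals.

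A palindrome of the form TTCNNNGAA is the classical STAT5 recognition sequence. Because STAT5 connects the receptor to its target genes, this sequence was searched for in the 250 bases upstream of the RefSeq starts (GRCm38.p6). The motif reads the same on both strands. Of the 10 genes, 9 had a promoter in the RefSeq table, together 15 promoters, and *Socs2* was the exception. Only the *Igfals* promoters among these 15 held the motif, 2 of them, against 2306 of all 32851 mouse promoters (7.02%). By gene this was 1 of 9, beside 8.13% of the 27025 genes in the table. The windows are shown because *Igfals* alone of these genes held such a match, which is printed in capitals with 10 bases on each side.
Igfals upstream window 1, chr17:24877598-24877626, plus strand: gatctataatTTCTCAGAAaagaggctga
Igfals upstream window 2, chr17:24878163-24878191, plus strand: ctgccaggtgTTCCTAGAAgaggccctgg
The first motif began 236 bases before the start at 24877844 and the second 58 bases before the start at 24878231. Both lie inside the *Igfals* gene of the GENCODE M21 annotation (chromosome 17, 24865997 to 24882010, plus strand), in stretches that this annotation gives as intron. A match is a run of letters and says nothing of binding in these livers.

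Libraries held 14860414 to 22111926 counted reads, with medians of 15884818 in WT and 17893575 in LKO. Levels are given as CPM (read counts of a gene relative to library size) scaled by TMM normalization, which corrects for library composition, and genotypes were compared with the quasi-likelihood test of edgeR, with p-values adjusted by the Benjamini-Hochberg method over all 17509 tested genes. *Marchf6* itself lay between 226 and 247 CPM in WT and between 204 and 249 CPM in LKO (log2 fold change -0.09, SE 0.060, adjusted p = 0.585). Counts summed over a whole gene cannot show the loss of 1 exon, so they do not check the genotype labels. Hepatocyte markers were abundant in every liver, with a sum over 8 genes of 95734 to 118449 CPM in WT and 87078 to 98628 CPM in LKO. The sum over 10 Kupffer cell markers was 140 to 190 CPM in WT and 170 to 294 CPM in LKO. The library numbers of the WT livers all come before those of LKO, and library order and genotype cannot be told apart.

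WT1, WT2, LKO1 and LKO2 stood apart from the other 8 in genes of the circadian clock, whose transcripts cycle over the day. *Dbp*, a clock output gene, was at 12.1 to 21.7 CPM in these 4 livers and at 60.8 to 76.8 CPM in the other 8. *Tef*, another clock output gene, was at 82.6 to 127 CPM against 192 to 237 CPM. The activator gene *Arntl* lay on the opposite side, at 12.1 to 24.2 CPM against 3.49 to 7.08 CPM. Of 10 clock genes 6 separated the livers without overlap, among them *Dbp*, which defined the division. The share of all genes that separate the same livers was not counted. Between genotypes 0 of the 10 differed by the edgeR test. Each genotype had 2 such livers. The division is from the data and not from the labels, which give no time of sacrifice, and results that move with it are also given within the 8 livers of high *Dbp*.

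None of the 10 genes passed an adjusted p of 0.05 between LKO and WT (0 of 10, edgeR), beside 75 of 17509 genes overall (0.428%). In LKO 8 of the 10 had a lower fitted level and 2 a higher one, with a median log2 fold change of -0.12 where the median of all tested genes was 0.00016. At an unadjusted p of 0.05, 2 of the 10 passed, *Ghr* and *Igfals*, both lower in LKO. The same limit was passed by 11.7% of all genes. With 1 liver left out, the unadjusted p by edgeR ran from 0.0186 to 0.0800 for *Ghr* and from 0.0141 to 0.0747 for *Igfals*. Without WT1, and likewise without WT4, 0 of the 10 passed the unadjusted limit. DESeq2 and limma voom also gave 0 adjusted calls among the 10, with 3 and 2 at the unadjusted limit. For none of the 10 did the WT and LKO values separate without overlap, which 1.30% of all genes did.

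**Figure D1:**
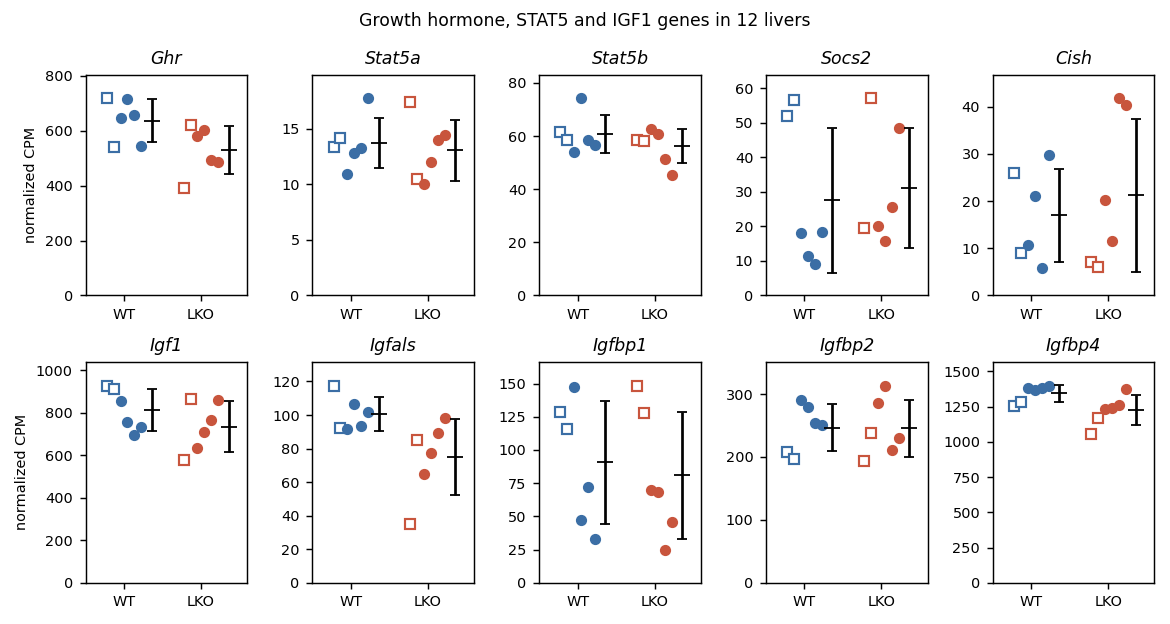
Normalized CPM of the 10 genes in each of 6 WT (blue) and 6 LKO (red) livers, with the mean and SD as a bar at the right of each group and open squares for the 4 livers of low *Dbp*. Genotypes overlap in every panel, with *Ghr*, *Igfals* and *Igfbp4* lying lower in most LKO livers and *Socs2*, *Cish* and *Igfbp1* spread widely within both genotypes.

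The receptor gene *Ghr* (chromosome 15, 3317760 to 3583492, minus strand) was measured at 541 to 718 CPM in WT, with a median of 652 CPM. In LKO it ranged from 392 to 620 CPM with a median of 538 CPM. Values overlapped, but 6 of 6 LKO livers lay below the WT mean and 3 lay below the lowest WT liver. Mean levels were 637 ± 78.9 CPM in WT and 529 ± 87.6 CPM in LKO (SD, n = 6 each). The log2 fold change was -0.27 with a 95% interval of -0.51 to -0.02, and the edgeR test with Benjamini-Hochberg adjustment gave an adjusted p of 0.373 (unadjusted 0.0336). Leaving out 1 liver moved the log2 fold change between -0.32 (without LKO2) and -0.19 (without LKO1). Within the 8 livers of high *Dbp* it was -0.24 (edgeR, adjusted p = 0.452). As these are bulk livers, fewer cells of a type and less RNA per cell cannot be told apart. Albumin, the defining hepatocyte transcript, had a log2 fold change of -0.18 (edgeR, adjusted p = 0.413), and 7 of 8 hepatocyte markers were lower in LKO, whose part in the *Ghr* and *Igfals* values was not tested.

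The transducer genes lie side by side on chromosome 11, *Stat5b* at 100780731 to 100850724 on the minus strand and *Stat5a* at 100859351 to 100885169 on the plus strand. *Stat5b*, the main STAT5 form of liver, was at 54.0 to 74.2 CPM in WT (median 58.6 CPM) and at 45.5 to 62.5 CPM in LKO (median 58.3 CPM). Its 2 lowest livers were LKO5 and LKO6 and its highest was WT4, with the rest of both genotypes intermixed. *Stat5a* was at 10.9 to 17.8 CPM in WT (median 13.3 CPM) and at 10.0 to 17.4 CPM in LKO (median 13.0 CPM). Log2 fold changes were -0.11 (SE 0.09) for *Stat5b* and -0.07 (SE 0.14) for *Stat5a*, neither beyond the spread between livers (edgeR, adjusted p = 0.690 and 0.903). The paralogs share sequence: 8.21% of the 50-base stretches of *Stat5a* transcripts also occur in *Stat5b*, and 11.0% of those of *Stat5b* in *Stat5a*, so reads from these stretches could not be assigned by sequence.

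Feedback inhibitors induced by STAT5 varied widely between livers of one genotype. *Socs2* (chromosome 10, 95385362 to 95417180, minus strand) ran from 9.06 to 56.6 CPM in WT with a median of 18.3 CPM. In LKO it ran from 15.7 to 57.2 CPM with a median of 22.8 CPM. Of the livers of low *Dbp*, WT1, WT2 and LKO2 held the highest values, at 52.0, 56.6 and 57.2 CPM, while LKO1 was at 19.4 CPM. The next highest was LKO6 at 48.5 CPM. Over all 12 livers the log2 fold change was 0.17, with a 95% interval of -0.80 to 1.14 (edgeR, adjusted p = 0.930). Within the 8 livers of high *Dbp*, *Socs2* was at 9.06 to 18.3 CPM in WT and at 15.7 to 48.5 CPM in LKO, with a log2 fold change of 0.95 (edgeR, unadjusted p = 0.0145, adjusted p = 0.359). In the 4 of low *Dbp* it was -0.51 (edgeR, adjusted p = 0.983), and the difference between these 2 values was not tested.

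*Cish* (chromosome 9, 107296026 to 107302784, plus strand) was at 5.76 to 29.7 CPM in WT (median 15.9 CPM) and at 6.10 to 41.8 CPM in LKO (median 15.9 CPM). LKO5 and LKO6 were the highest of all livers at 41.8 and 40.4 CPM, and the lowest was WT5 at 5.76 CPM, next to LKO2 and LKO1 at 6.10 and 7.07 CPM. The log2 fold change was 0.33 with a 95% interval of -0.73 to 1.40 (edgeR, adjusted p = 0.854). Leaving out 1 liver moved it between 0.015 (without LKO5) and 0.57 (without WT6). It was 0.78 within the 8 livers of high *Dbp* and -1.39 within the 4 of low *Dbp* (edgeR, adjusted p = 0.603 and 0.977). A genotype difference of the fitted size was not detectable for *Cish* with this spread between livers. Antisense annotations overlap *Cish* exons by 479 and 261 bases, *Gm17041* with 0 reads in every liver and *Gm17040* with 2 to 8 reads per liver, beside 91 to 972 reads for *Cish*.

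The spread of *Cish*, *Socs2* and *Igfbp1* between livers was large beside that of other genes. Among 7789 genes with a mean of at least 10 CPM, the median coefficient of variation (SD divided by the mean) was 9.87% in WT and 9.76% in LKO. *Socs2* reached 76.2% in WT and 55.9% in LKO. *Cish* reached 57.8% and 76.4%, and *Igfbp1* 51.5% and 59.4%. Each of these 6 values lay at or above the 98.8th percentile of its genotype. *Igfbp4* had the smallest spread of the 10, with 4.57% in WT and 8.70% in LKO. Among the 7789 genes these values lay at percentile 6.78 in WT and 41.2 in LKO. *Igfals* differed between the genotypes in this respect, at 10.2% in WT and 30.2% in LKO, and the liver LKO1 lay far below the others for this gene.

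*Igf1* (chromosome 10, 87858265 to 87937042, plus strand), the growth factor made by hepatocytes on growth hormone, was at 693 to 928 CPM in WT with a median of 805 CPM. In LKO it was at 576 to 864 CPM with a median of 737 CPM. WT1 and WT2 were the highest livers and LKO1 and LKO3 the lowest, while the other 8 were intermixed. The log2 fold change was -0.15 (SE 0.11; edgeR, adjusted p = 0.653), and -0.08 without LKO1. Within the 8 livers of high *Dbp* it was -0.03 (edgeR, adjusted p = 0.953).

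*Igfals*, which encodes the subunit that keeps IGF1 in a large complex in plasma, was at 91.6 to 118 CPM in WT with a median of 97.8 CPM. In LKO it was at 35.0 to 98.4 CPM with a median of 81.1 CPM. All 6 LKO livers lay below the WT mean, and 5 of them below the lowest WT liver, with LKO6 at 98.4 CPM inside the WT range. Means were 101 ± 10.2 CPM in WT and 74.9 ± 22.6 CPM in LKO (SD, n = 6 each). The log2 fold change was -0.42 with a 95% interval of -0.81 to -0.04 (edgeR, unadjusted p = 0.0340, adjusted p = 0.374). Leaving out LKO1, whose 35.0 CPM was the lowest value, brought it to -0.28 (edgeR, unadjusted p = 0.0160, adjusted p = 0.296). Without WT1 it was -0.37 (edgeR, unadjusted p = 0.0747, adjusted p = 0.516). It was -0.25 within the 8 livers of high *Dbp* (edgeR, adjusted p = 0.480). The adjusted p missed the threshold in every fit, so the lower *Igfals* level is given as a value and not as a call.

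**Figure D2:**
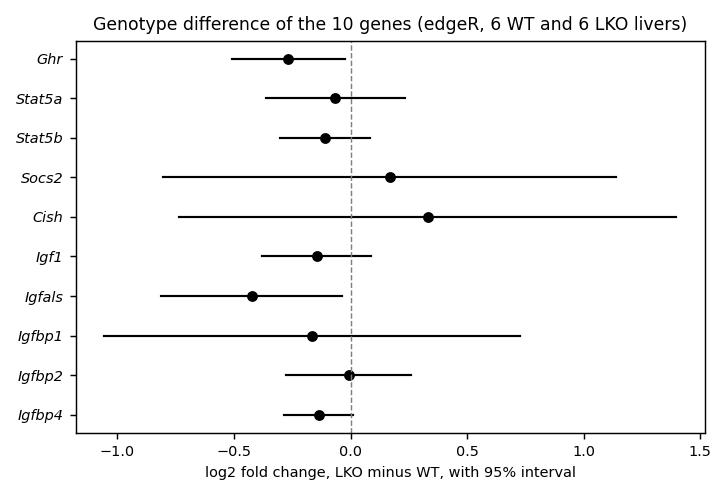
Log2 fold change of each of the 10 genes, LKO minus WT, as a point with its 95% interval from edgeR (6 WT and 6 LKO livers). The intervals of *Ghr* (-0.51 to -0.02) and *Igfals* (-0.81 to -0.04) end just below 0 before adjustment for 17509 genes, and those of *Cish* and *Socs2* are the widest.

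The genes of the binding proteins differed from one another in level, spread and relation to the clock genes. *Igfbp4* (chromosome 11, 99041244 to 99054392, plus strand) was at 1254 to 1400 CPM in WT with a median of 1374 CPM, and at 1057 to 1378 CPM in LKO with a median of 1238 CPM. Of the LKO livers 4 lay below the lowest WT liver and LKO6 alone lay above the WT mean. Its log2 fold change was -0.14 (SE 0.07; edgeR, unadjusted p = 0.0678, adjusted p = 0.471). With the *Dbp* class as a second term in the model the value was again -0.14, with an unadjusted p of 0.0274 and an adjusted p of 0.281 by edgeR. *Igfbp2* (chromosome 1, 72824503 to 72852474, plus strand) was at 197 to 291 CPM in WT (median 252 CPM) and at 193 to 314 CPM in LKO (median 234 CPM). Its log2 fold change of -0.01 (SE 0.13; edgeR, adjusted p = 0.990) was the one nearest to 0.

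*Igfbp1* (chromosome 11, 7197782 to 7202546, plus strand), the binding protein gene suppressed by insulin, was at 33.0 to 148 CPM in WT with a median of 93.7 CPM. In LKO it was at 24.3 to 149 CPM with a median of 69.3 CPM. Of its 5 highest values, 4 were those of the livers of low *Dbp*, at 115 to 149 CPM, and the remaining one was WT3 at 148 CPM. The other 7 livers, 3 WT and 4 LKO, lay at 24.3 to 71.9 CPM. The log2 fold change between genotypes was -0.17 (SE 0.42; edgeR, adjusted p = 0.923). Other genes known to be suppressed by insulin through FOXO1 did not pass either, 0 of 7, with 2 higher and 5 lower in LKO. The most abundant were *Pck1*, at -0.08, and *G6pc*, at -0.41 on the log2 scale, and *Pdk4*, named after its values were seen, was at 1.06 (edgeR, unadjusted p = 0.0147, adjusted p = 0.279), or 0.52 without LKO1.

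**Figure D3:**
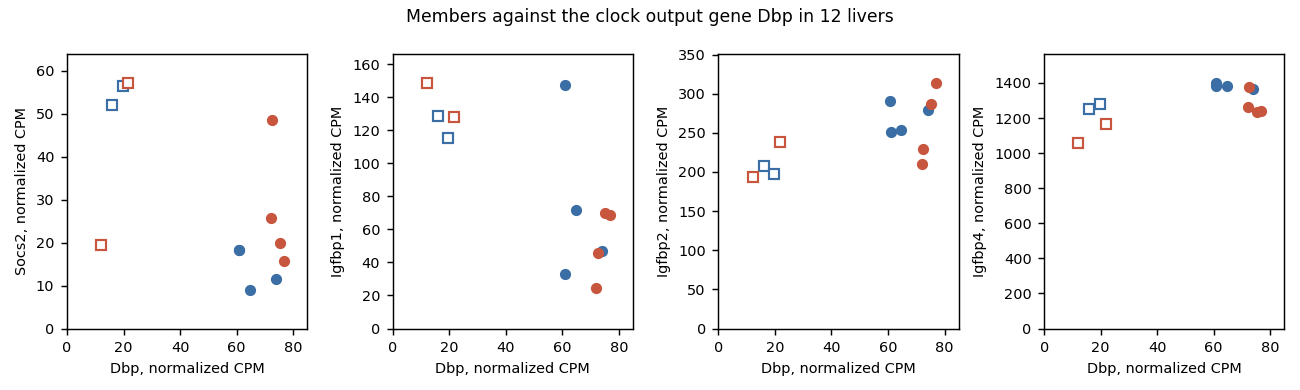
Normalized CPM of *Socs2*, *Igfbp1*, *Igfbp2* and *Igfbp4* (y axes) against *Dbp* (x axis) in 6 WT (blue) and 6 LKO (red) livers, with open squares for the 4 livers below 30 CPM of *Dbp*. These 4 have *Igfbp1* at 115 to 149 CPM and a median *Igfbp4* of 1211 CPM, while the 8 others have median values of 57.8 CPM and 1371 CPM.

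Seen by *Dbp* class, as a description with no test, *Igfbp1* had a median of 128 CPM in the 4 livers of low *Dbp* and of 57.8 CPM in the other 8. *Socs2* had medians of 54.3 and 18.3 CPM, and *Igf1* of 889 and 744 CPM. The order was the opposite for *Cish*, with 8.07 against 20.7 CPM, for *Igfbp2*, with 203 against 267 CPM, and for *Igfbp4*, with 1211 against 1371 CPM. The ranges of the 2 classes overlapped for each of these 6 genes. For *Stat5a*, *Stat5b*, *Ghr* and *Igfals* the medians were closer, at 13.8 and 13.0 CPM, 58.6 and 57.6 CPM, 581 and 592 CPM, and 88.6 and 92.5 CPM. The part of the clock difference in the values of these genes was not tested.

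Set on a scale per length of merged exons (FPKM, CPM per kilobase of exon), so that genes can be compared with each other, the binding protein gene *Igfbp4* had the highest level of the 10 and *Stat5a* the lowest. Mean WT levels were 305 FPKM for *Igfbp4*, 134 FPKM for *Igfbp2*, 82.1 FPKM for *Igf1*, 70.3 FPKM for *Ghr*, 59.4 FPKM for *Igfbp1* and 31.7 FPKM for *Igfals*. They were 10.9 FPKM for *Stat5b*, 2.90 FPKM for *Socs2*, 2.66 FPKM for *Cish* and 1.92 FPKM for *Stat5a*. Neighbours in this order separated without overlap in both genotypes for *Igfbp4* over *Igfbp2*, *Igfbp2* over *Igf1*, and *Stat5b* over *Socs2*. *Igfals* lay above *Stat5b* in each of the 12 livers, though their ranges overlapped in LKO. The other neighbouring pairs overlapped in both genotypes, so their order is not beyond the spread between livers.

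**Figure D4:**
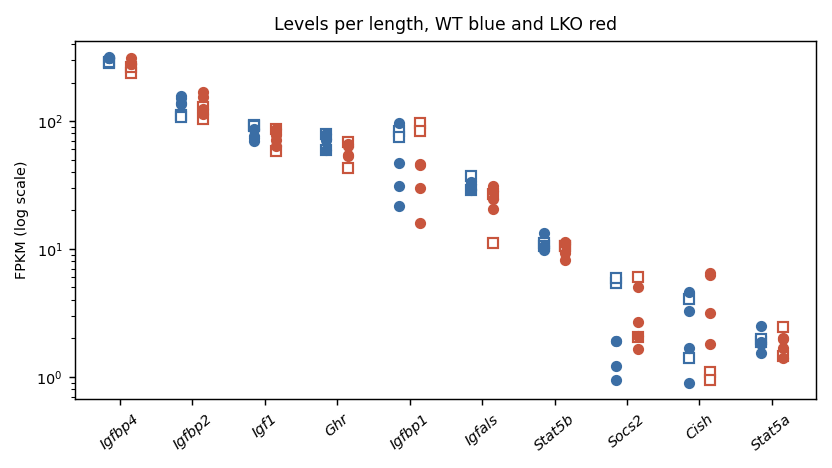
Level of each gene in FPKM (log scale) in every WT (blue) and LKO (red) liver, ordered by the WT mean, with open squares for the livers of low *Dbp*. Levels run from 305 FPKM for *Igfbp4* to 1.92 FPKM for *Stat5a* in the WT mean. *Igfbp4* over *Igfbp2*, *Igfbp2* over *Igf1* and *Stat5b* over *Socs2* separate in both genotypes, while the other neighbouring genes overlap in at least 1 genotype.

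Single livers held the extremes of several genes. LKO1 was the lowest of the 12 for 5 genes, *Ghr*, *Igf1*, *Igfals*, *Igfbp2* and *Igfbp4*, and the highest for *Igfbp1*. WT1 was the highest for *Ghr*, *Igf1* and *Igfals*. Neither was beyond Dixon's limit for a single outlying value within its genotype for any of the 10 genes.

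Whether genes of the axis vary together between animals was asked for 7 pairs on log2 CPM over the 12 livers, with permutation p-values (two-sided) adjusted over the 7 pairs. *Igf1* and *Igfals*, the 2 secreted partners, had a Pearson r of 0.76 (permutation p = 0.00223, adjusted p = 0.0156) and a Spearman rho of 0.52 (permutation p = 0.0840, adjusted p = 0.294). The relation rested on few livers: r was 0.88 within LKO and 0.20 within WT, and it was 0.48 without LKO1 and WT1, the livers farthest from the median of *Igf1*. *Socs2* and *Igf1* had an r of 0.67 (permutation p = 0.0176, adjusted p = 0.0617) and a rho of 0.66 (permutation p = 0.0212, adjusted p = 0.148). Here r was 0.90 within WT and 0.82 within LKO, 0.56 without the 2 livers farthest from the median of *Socs2* (LKO2 and WT2), and 0.50 within the 8 livers of high *Dbp*. It therefore failed the adjustment but was positive in both genotypes.

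*Cish* and *Socs2*, both induced by STAT5, had an r of only 0.15 over the 12 livers (permutation p = 0.627, adjusted p = 0.646; rho 0.13, permutation p = 0.702, adjusted p = 0.702). Within the 8 livers of high *Dbp* the r was 0.76 and rho 0.76 (exact permutation p = 0.0272 and 0.0368; adjusted p = 0.145 and 0.160). LKO1 and LKO2 were next to WT5, the liver of lowest *Cish*, and LKO2 had the highest *Socs2*. *Igfbp1* and *Igfbp2* likewise had an r of -0.15 over all livers (permutation p = 0.646, adjusted p = 0.646) and of 0.72 within the 8 (exact permutation p = 0.0415, adjusted p = 0.145). The other 3 pairs had r of 0.43 for *Ghr* and *Igf1*, 0.19 for *Cish* and *Igf1*, and -0.22 for *Stat5a* and *Stat5b*, with adjusted permutation p-values of 0.379, 0.646 and 0.646.

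**Figure D5:**
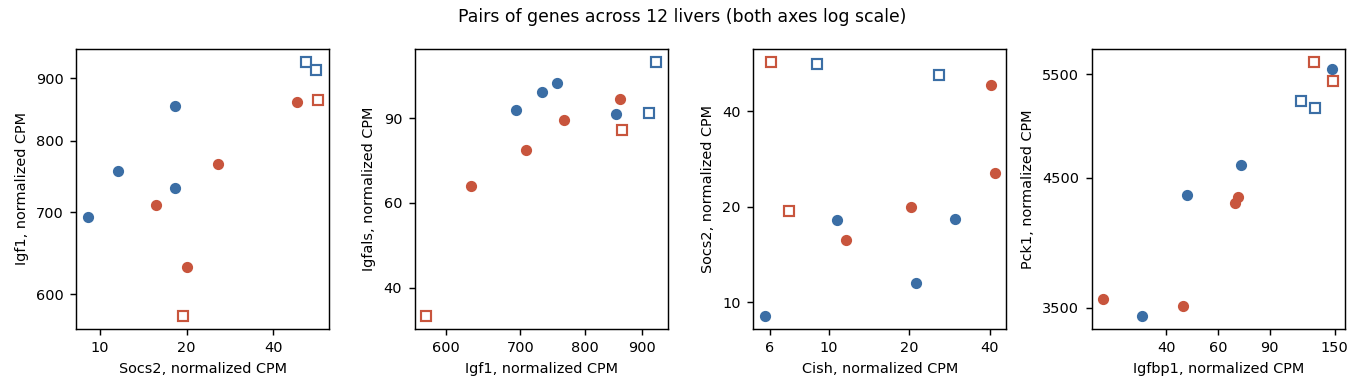
Normalized CPM of 4 gene pairs in 12 livers (both axes log scale), WT in blue and LKO in red, with open squares for the livers of low *Dbp*. *Igf1* is higher in the livers with more *Socs2* (r = 0.67), the low corner of the *Igf1* and *Igfals* panel is LKO1, the *Cish* and *Socs2* panel has no common trend over the 12 livers (r = 0.15), and *Pck1* follows *Igfbp1* in both genotypes.

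For each gene the tested genes most like it were sought by Pearson r over the 12 livers after the mean of each genotype was subtracted, among 12774 genes with a mean of at least 1 CPM, as a description without a test. *Ghr* was followed most closely by *Slco1a1* (r = 0.95), which encodes an organic anion transporter of hepatocytes, then by *Txndc15* (0.94) and the catalase gene *Cat* (0.93). *Igfbp1* was followed by *Pck1* (r = 0.95), the gluconeogenic enzyme gene, with 0.96 within WT and 0.94 within LKO, then by *Fcf1* (0.93) and the kinase gene *Sgk1* (0.93). *Socs2* was followed by *Cwc25* (0.96) and by *Map4k5* (0.93). *Igf1* was most like *Gm44787* and *Tmem37* (0.95 each) and *Mavs* (0.92). The genes nearest to *Igfals* were *Naa20* (0.96), *Ugt2a3* (0.92) and *Brcc3* (0.92), but r with *Naa20* and *Ugt2a3* was 0.52 and 0.17 within WT. *Igfbp4* had the highest r of all, with *Narf* (0.99), followed by *Hcn3* (0.96) and *Rev1* (0.95). *Igfbp2* was most like *Taz* (0.92), *Abcg8* (0.91) and *Gm49668* (0.91). *Cish* was nearest to *Arglu1* (0.92), *Ell* (0.90) and *Fbxo36* (0.87), *Stat5a* to *Gsk3a*, *Prune1* (0.90 each) and *Fam83h* (0.89), and *Stat5b* to *Ocln* (0.90), *Mrnip* (0.88) and *Scap* (0.87). These are the largest of 12774 values per gene over 12 livers of shared handling, and each is selected for its size.

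Other genes of growth hormone receptor signalling, among them the kinases, phosphatases and further SOCS genes, gave 0 calls of 10, with 3 higher and 7 lower in LKO and a median log2 fold change of -0.08. The 2 most abundant were *Stat3*, at -0.26, and *Jak1*, at -0.11. The rest of the IGF system gave 0 calls of 10 tested genes, with 4 more at too few reads to be tested. *Insr*, the insulin receptor gene, and *Igf2r*, the IGF2 scavenger receptor gene, were its most abundant genes, with log2 fold changes of -0.11 and -0.09. *Irs1*, the adaptor of the insulin and IGF1 receptors, was at 15.1 to 22.1 CPM in WT and at 12.2 to 16.2 CPM in LKO and is named after its values were seen. Its log2 fold change of -0.43 (SE 0.098) had an adjusted p of 0.0797 by edgeR, 0.00676 by DESeq2, and 0.0485 by edgeR with the *Dbp* class in the model. With a replicate block edgeR gave 0.0446. It did not pass by limma voom (adjusted p = 0.0709) or by edgeR under other scalings and filters (0.0726 to 0.0892). Nor did it pass by edgeR with any 1 liver left out (adjusted p = 0.0574 to 0.165). *Igfbp3*, made by non-parenchymal liver cells and named for the same reason, had a log2 fold change of 0.35 (edgeR, unadjusted p = 0.0319, adjusted p = 0.365). Liver transcription factors under growth hormone control gave 0 calls of 4, with 3 higher and 1 lower in LKO and a median log2 fold change of 0.19. *Bcl6* was at -0.38 (between -0.995 without LKO2 and -0.12 without WT4) and *Trim24* at 0.01. *Onecut1* and *Cux2*, named after their values were seen, were at 0.45 (SE 0.63) and 0.36 (SE 0.36), with adjusted p-values of 0.841 and 0.753 by edgeR. *Cux2* had only 4 to 24 reads per liver.

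Downstream genes that depend on the male growth hormone pattern had values in both directions. Of 12 genes known to be higher in male than in female liver, 2 passed the edgeR test, beside 0.274% of all genes that passed as higher and 0.154% as lower. Both were cytochrome P450 fatty acid hydroxylase genes, close paralogs that can share reads. *Cyp4a12a* was at 218 to 315 CPM in WT and 336 to 440 CPM in LKO, and rose by a log2 fold change of 0.59 (edgeR, adjusted p = 0.00999). *Cyp4a12b* was at 85.7 to 150 CPM in WT and 165 to 202 CPM in LKO, and rose by 0.75 on the log2 scale (edgeR, adjusted p = 0.0121). For both, no LKO liver overlapped the WT range. Within the 8 livers of high *Dbp* the log2 fold changes were 0.67 for *Cyp4a12a* and 0.71 for *Cyp4a12b* and neither passed (edgeR, adjusted p = 0.0546 and 0.156). The other 10 did not pass by edgeR, with a median over the 12 of -0.35, and 9 of the 12 had lower values in LKO.

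Among those 9, *Selenbp2*, *Mup20*, *Cyp7b1* and *Serpina1e* had log2 fold changes of -1.71, -0.81, -1.01 and -0.88 (edgeR, adjusted p = 0.0893, 0.146, 0.182 and 0.362). They are named after their values were seen. The liver WT3 lay within the LKO range for *Selenbp2* (111 CPM), *Mup20* (887 CPM), *Cyp7b1* (122 CPM) and *Serpina1e* (1862 CPM). Without it the adjusted p by edgeR was 0.00709 for *Selenbp2*, 0.0189 for *Mup20*, 0.0125 for *Cyp7b1* and 0.152 for *Serpina1e*. WT3 was picked for these values, so a smaller p without it is no separate support. With any other liver left out, edgeR gave *Mup20* an adjusted p of 0.126 to 0.288 and *Cyp7b1* 0.193 to 0.320. With all 12 livers DESeq2, which called 351 genes where edgeR called 75, gave adjusted p-values of 0.0186 for *Selenbp2*, 0.0234 for *Mup20* and 0.111 for *Cyp7b1*. By limma voom the adjusted p was 0.184 for *Mup20* and 0.268 for *Cyp7b1*. Among the 10 genes of the axis, WT3 was the lowest WT liver for *Stat5a* (10.9 CPM), *Stat5b* (54.0 CPM) and *Igfals* (91.6 CPM) and the highest WT liver for *Igfbp1* (148 CPM) and *Igfbp2* (291 CPM), while *Igf1* (854 CPM), *Ghr* (647 CPM), *Socs2* (18.2 CPM), *Cish* (10.7 CPM) and *Igfbp4* (1385 CPM) lay inside the range of the other WT livers. Of 16 genes known to be higher in female liver, 8 had enough reads to be tested and 0 passed by edgeR. In LKO 5 of the 8 were higher and 3 lower, with a median log2 fold change of 0.38. *Prlr*, the prolactin receptor gene and the most abundant of them, had a log2 fold change of -0.23. *Cyp17a1*, the next most abundant, was at 18.4 to 68.01 CPM in WT, where WT3 was highest, and 50.8 to 89.8 CPM in LKO. Its log2 fold change was 1.10, with an adjusted p of 0.0921 by edgeR, 0.00531 by DESeq2 and 0.0411 by limma voom. Without a filter on low counts the adjusted p by edgeR was 0.0377. It was 0.00064 without WT3, the liver already picked above, and 0.130 to 0.202 with any other liver left out.

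Lipid genes known to rise when growth hormone signalling in the liver is lost gave 0 calls of 3 by edgeR. The fatty acid transporter gene *Cd36* was at 10.0 to 46.7 CPM in WT, where WT3 was highest, and at 25.5 to 94.0 CPM in LKO. Its log2 fold change was 1.46 (edgeR, adjusted p = 0.134). The adjusted p by edgeR was 0.0103 without WT3, and 0.108 to 0.275 with any other liver left out. *Pparg*, encoding a lipogenic nuclear receptor, was at 2.77 to 5.02 CPM in WT and 4.33 to 9.33 CPM in LKO (log2 fold change 0.70, edgeR, adjusted p = 0.164). All 3 genes of this list were higher in LKO at the fitted level. *Cd36* is also made by Kupffer and endothelial cells. Kupffer markers were higher in LKO for 10 of 10, with 9 at an unadjusted p of 0.05 and 0 adjusted calls by edgeR. Fitted levels in LKO also exceeded WT for 7 of 8 endothelial, 8 of 8 stellate, 4 of 4 B cell and 3 of 5 cholangiocyte markers. On the log2 scale the list medians were 0.38 (Kupffer), 0.05 (endothelial), 0.24 (stellate), 0.87 (B cell) and 0.25 (cholangiocyte). B cell markers had few reads, at most 13 in any liver. The part of these cell types in the *Cd36* value was not tested.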

How the data were processed

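Livers of 6 WT and 6 LKO mice were grouped by the genotype in the labels. Per the labels and the study's methods, mRNA libraries (KAPA mRNA HyperPrep) were sequenced on a HiSeq4000, and the submitters' processing notes name FastQC 0.11.15, Trimmomatic 0.36, HISAT2 2.1.0 and HTSeq 0.6.1 with GRCm38.p6. The authors deposited raw counts of reads per Ensembl gene. The strand setting and the treatment of reads on overlapping genes are not given in the sources used here. Symbols and exon lengths came from GENCODE M21, in which 54165 of 54232 identifiers were found.

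A gene was kept if 6 or more livers each had over 2 reads of it. The test was that of edgeR 4.0.16 (R 4.3.3; TMM, quasi-likelihood, genotype as the only term), whereas the study used limma voom. Adjusted p-values are Benjamini-Hochberg over all tested genes with a threshold of 0.05. Counting error is small for genes with many reads. It is larger for *Stat5a*, with as few as 156 reads in a liver, *Cish*, with as few as 91, and *Cux2*, with 4 to 24. The 6 livers per group also limit the precision. Log2 CPM used a prior count of 0.5. The fits across all genes were tested on simulated data. Alternatives were other scalings and filters, limma 3.58.1, DESeq2 1.42.0, a replicate block and the omission of each liver. The *Dbp* class (below 30 CPM or not) was chosen after seeing the data.

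The members and gene lists were chosen with earlier results of these data known. Named were the 10 genes, the called genes of each pathway list or, with fewer than 2, its 2 most abundant, and for each member the 3 genes most like it, of which 1 is not reported here. Markers of stellate cells (0 of 8 called), endothelial cells (0 of 8), cholangiocytes (0 of 5) and B cells (0 of 4) were summarized by list. Clock, hepatocyte and Kupffer genes were also summarized by list, and a few of the clock and hepatocyte genes are named. No amino acid sequence was used here.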

Additional observations from a re-analysis of the deposited data

How the results depend on the processing

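None of the 10 genes passed an adjusted p of 0.05 under any scaling, filter, tool, replicate block or omission of 1 liver, nor in the fits with the *Dbp* class. The number of all genes called moved from 75 to 114 without a filter, 351 with DESeq2, 170 with the *Dbp* class as a second term, 28 in the 8 livers of high *Dbp* and 0 in the 4 of low *Dbp*, where 2 livers a group remain, and ranged from 38 (without WT5) to 132 (without WT3) when 1 liver was left out. With a replicate block 97 genes were called. Same-numbered livers correlated at -0.176 to 0.288 after centring, so the numbers were not taken to pair the mice.

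Signs were not stable for genes near 0. *Igfbp2* was at 0.0071 with upper-quartile scaling, 0.0078 without a filter, 0.093 in the livers of low *Dbp* and between -0.091 and 0.052 with 1 liver left out. With 1 liver left out *Igfbp1* ran from -0.43 to 0.027, *Socs2* from -0.087 to 0.51, *Stat5a* from -0.16 to 0.022, *Cish* from 0.015 to 0.57, *Stat5b* from -0.14 to -0.042 (without WT4), *Trim24* from -0.097 to 0.19 and *Onecut1* from -0.087 (without LKO6) to 0.78. In the 4 livers of low *Dbp*, *Cish* (-1.39), *Socs2* (-0.51), *Stat5a* (0.030), *Igfbp1* (0.18), *Bcl6* (0.64), *Onecut1* (-1.68), *Igf2r* (0.067) and *Pck1* (0.095) also changed sign, as did *Trim24* (-0.075) in the 8 others. The cause was not tested. The r of *Igf1* and *Igfals* lost its call within WT (0.20), without the farthest livers (0.48) and in the 8 livers (0.63). The r of *Cish* and *Socs2* was -0.066 without the farthest livers and in the 8 livers r was -0.22 for *Ghr* and *Igf1* and 0.72 for *Igfbp1* and *Igfbp2*.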
